A study of Mus musculus with 12 samples.

Results

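The genes described here are 9 enzymes and transporters that set the balance of phosphate and pyrophosphate around mineralizing bone cells: Enpp1, Enpp3, Ank, Alpl, Phospho1, Smpd3, Slc20a1, Slc20a2 and Xpr1. They were taken by symbol from the 56691 rows of the deposited count table, where Ank is the symbol used for Ankh, and all 9 were present and passed the low-count filter that left 14394 genes. Phospho1 and Slc20a2 had at least 10 counts in every library of only 2 of the 4 groups, and the other 7 in all 4 groups.

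The cells were MC3T3-E1, a wild-type mouse line of calvarial pre-osteoblasts, measured by 3' mRNA sequencing after 28 days in osteogenic medium. Every group, the controls included, had 10 mM beta-glycerophosphate (BGP), 50 µg/ml ascorbic acid and 0.1 µM dexamethasone in that medium. From day 27, for 24 h, 3 of the 4 groups were given 25-hydroxyvitamin D (25(OH)D) at a labelled 100 µM, and the remaining group is labelled control, with no vehicle named. Of the treated groups 1 had 25(OH)D alone, 1 had a further 4 mM BGP, and 1 had ZK191784, a compound known by its code name, also at 100 µM. Each group had 3 libraries, ZK191784 was not given alone, and BGP was not added without 25(OH)D. All the cells are of 1 line, and the labels do not say that replicates were separate cultures, so each p-value sets a difference against the spread among these libraries, which may be technical. The doses are as labelled. The µM unit of the 25(OH)D dose may be a slip for nM, which could not be checked here.

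Mineral forms when phosphate outweighs pyrophosphate, an inhibitor of hydroxyapatite growth. ENPP1 and ENPP3 cleave nucleotide triphosphates outside the cell and can release pyrophosphate, ANK (ANKH) carries pyrophosphate precursors out of the cell, and the tissue-nonspecific alkaline phosphatase encoded by Alpl breaks pyrophosphate down to phosphate and also frees phosphate from BGP. Inside matrix vesicles PHOSPHO1 makes phosphate from phosphocholine, which the neutral sphingomyelinase encoded by Smpd3 helps to supply, while the Slc20a1 and Slc20a2 products (PiT1 and PiT2) import phosphate and XPR1 exports it.

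The libraries held between 3318723 and 5170980 counts. They also differed in the log2 ratio of ribosomal protein gene counts to counts of ribosomal protein pseudogenes and Gm-numbered genes, from −1.78 to −0.45, and the 3 highest were control library 3, 25(OH)D library 1 and BGP library 2. Of 7 osteoblast markers 7 passed the filter, with a summed level of 33520 to 54280 CPM (counts scaled to a common library size) per control library. That sum was 4795 to 7773 with 25(OH)D, 4993 to 6093 with added BGP and 17630 to 25250 with ZK191784, and its part in the results was not tested. Osteocyte markers (5 of 6 above the filter) summed to 111 to 150 CPM in control, 52.0 to 66.1 with 25(OH)D, 75.6 to 77.9 with BGP and 87.0 to 117 with ZK191784. Most of that was Pdpn, and the means of Dmp1 (2.52 in control, 3.07 with 25(OH)D) and Fgf23 did not follow the sum. Of the markers of other cells, 4 of 5 haematopoietic and osteoclast, 2 of 5 endothelial, 2 of 5 myocyte, 2 of 5 chondrocyte and 1 of 5 adipocyte genes passed the filter. In control and with 25(OH)D their sums were, in that order of cell types, 312 to 441 and 265 to 347, 26.2 to 62.6 and 17.1 to 43.6, 39.3 to 91.4 and 32.1 to 80.3, 99.5 to 244 and 66.8 to 151, and 6.74 to 9.28 and 1.06 to 6.15 CPM. Cdh5 and Myog were at 0 in every library, while Ptprc, Pecam1, Acta1 and Sox9 were expressed in all groups and mean Col2a1 was 31.7 in control and 1.21 CPM with 25(OH)D. The part of these cells in the results was not tested. In RNA from whole cultures, fewer cells of a type and less RNA per cell cannot be told apart.

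With 25(OH)D alone, 3 genes on the side of pyrophosphate supply (Enpp1 and Enpp3, which can make it, and Ank, which exports its precursors) rose, Alpl rose too, Smpd3 fell, and the phosphate transporters did not pass the test. These were 5 of the 9 genes, at an adjusted p under 0.05 over all 14394 genes (edgeR's quasi-likelihood test with Benjamini-Hochberg adjustment). The share over all genes tested was 8.68%, with 4.76% higher and 3.93% lower. The same 5 had groups that did not overlap, beside 21.9% of all genes. The median log2 difference of the 9 genes was 0.18, beside −0.05 over all genes. Levels are CPM scaled by the TMM method. The kit makes reads at the 3' end of a transcript, so CPM are not divided by length and levels of different genes are not ranked.

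**Figure D1:**
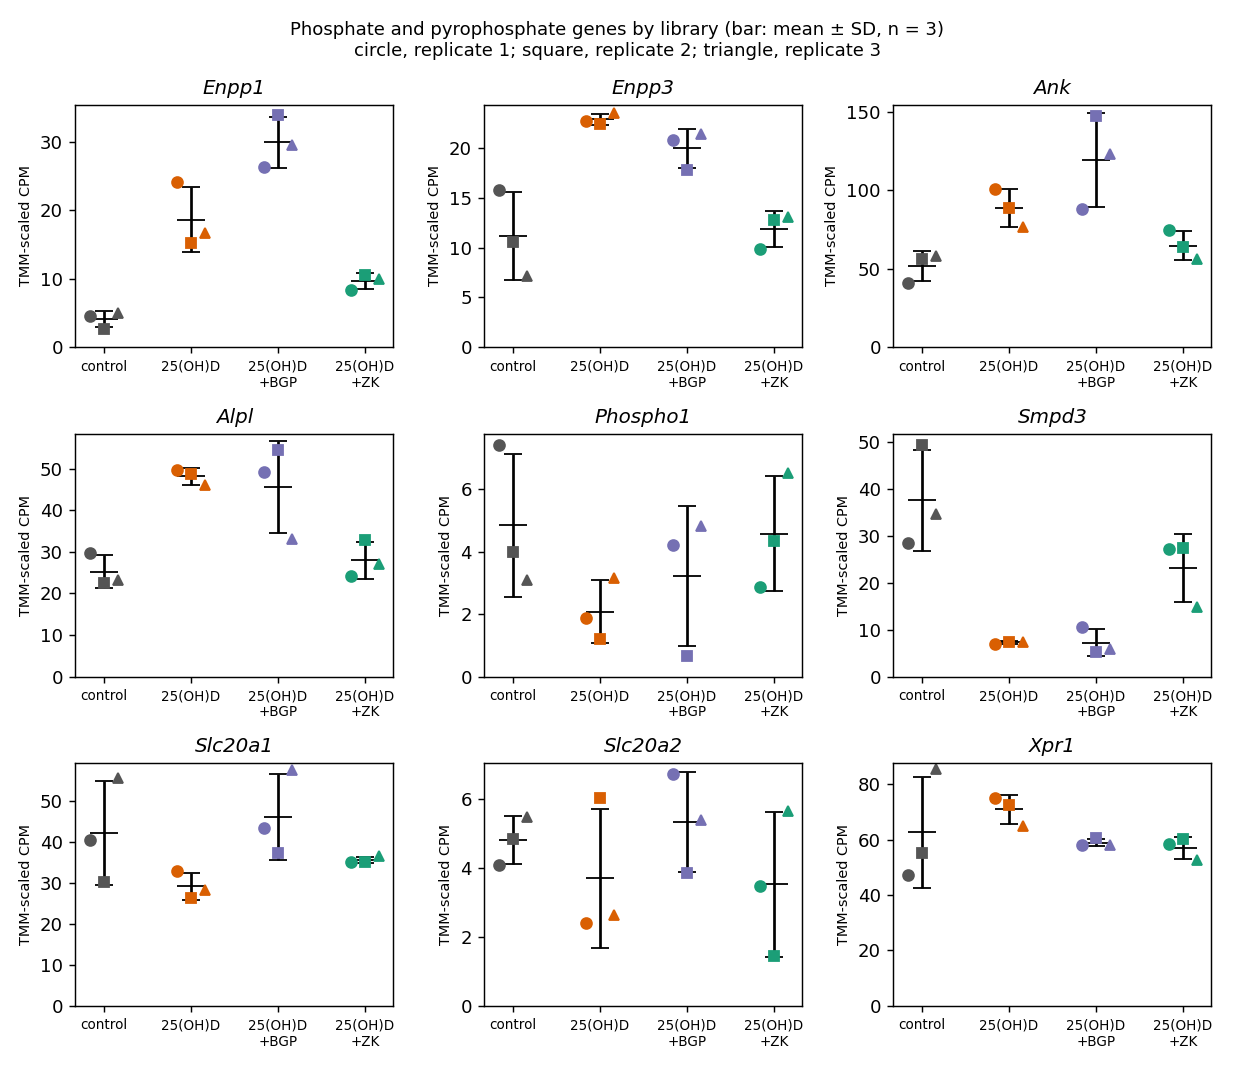
TMM-scaled CPM (vertical axis, linear, from 0) of each of the 9 genes in the 12 libraries, by group, with the mean and SD of 3 libraries. In Enpp1 the 4 groups are separate, with BGP on top and control at the bottom, and in Smpd3 all 25(OH)D and BGP libraries lie below every control library.

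Enpp1, the main nucleotide pyrophosphatase of osteoblasts, was at 4.56, 2.74 and 5.0 CPM in the control libraries and at 24.1, 15.2 and 16.6 CPM with 25(OH)D. The lowest 25(OH)D library was above the highest control library. The rise was 4.54-fold, a log2 difference of 2.18 ± 0.28 (SE, adjusted p = 0.000310, edgeR). The raw counts behind it were 53 in all control libraries and 216 in all 25(OH)D libraries.

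Enpp3, a close relative that also cleaves extracellular nucleotides, was at 15.8, 10.5 and 7.14 CPM in the control libraries, against 22.7, 22.4 and 23.5 CPM with 25(OH)D. The 3 treated libraries lay within a narrow range above all controls, whose own spread was wide (11.2 ± 4.38 CPM, mean ± SD, n = 3). The log2 difference was 1.03 ± 0.27 (SE), a 2.05-fold rise (adjusted p = 0.0294, edgeR). The lowest control value was that of control library 3, 1 of the 3 libraries with the highest ribosomal protein ratio. This call was lost in 8 of 14 other ways of processing, among them the fits without control library 2 or 3 or any 1 of the 3 25(OH)D libraries (adjusted p from 0.0629 to 0.0862).

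Ank, whose product moves pyrophosphate precursors out of the cell, was at 41.0, 56.3 and 57.8 CPM in the control libraries, against 101, 88.5 and 76.6 CPM with 25(OH)D. The groups did not overlap, and the difference was 0.78 ± 0.21 on the log2 scale (SE), or 1.71-fold (adjusted p = 0.0396, edgeR). The call was lost in 7 of 14 other ways of processing, including when a single library was left out: the adjusted p was 0.166 without the first control, 0.0861 without the second control, 0.155 without the first 25(OH)D library and 0.100 without the second.

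Alpl, whose enzyme removes pyrophosphate, was at 29.7, 22.6 and 23.3 CPM in the control libraries, against 49.7, 48.7 and 46.0 CPM with 25(OH)D. All treated libraries were above all controls, with a log2 difference of 0.93 ± 0.21 (SE), or 1.91-fold (adjusted p = 0.0138, edgeR). Without control library 2 the adjusted p was 0.0561, and without the 3 libraries of highest ribosomal protein ratio it was 0.0635. Alpl thus rose while the summed level of the 7 osteoblast markers, of which it is 1, was lower. In control that sum was mostly Col1a1 and Ibsp.

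Smpd3, which encodes the sphingomyelinase needed for normal skeletal mineralization in mice, was at 28.5, 49.5 and 34.7 CPM in the control libraries, against 6.95, 7.47 and 7.40 CPM with 25(OH)D. Every 25(OH)D library was below every control library by a wide margin. Smpd3 fell by 2.37 on the log2 scale (SE 0.34), a 5.16-fold change (adjusted p = 0.000648, edgeR). The Enpp1 and Smpd3 calls were the 2 of these 5 that held in all 14 other ways of processing, with adjusted p of at most 0.0103 and 0.00593.

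Phospho1, the phosphocholine phosphatase gene, was at 7.43, 4.00 and 3.09 CPM in the control libraries, against 1.87, 1.21 and 3.17 CPM with 25(OH)D. The groups overlapped, and the log2 difference of −1.21 ± 0.65 (SE) did not pass (adjusted p = 0.346, edgeR). Its 95% interval ran from −2.62 to 0.20, so a large fall could not be told from no change. Counts were 3 to 31 per library.

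Slc20a1, encoding the phosphate importer PiT1, was at 40.5, 30.3 and 55.7 CPM in the control libraries, against 32.9, 26.3 and 28.3 CPM with 25(OH)D. The groups overlapped at 30.3 and 32.9 CPM, and the log2 difference of −0.53 ± 0.23 (SE) had an adjusted p of 0.221 (edgeR). With the ribosomal protein ratio as a covariate it passed (−0.56, adjusted p = 0.0230). Slc20a2, encoding PiT2, was at 4.08, 4.85 and 5.47 against 2.41, 6.03 and 2.64 CPM, a log2 difference of −0.37 ± 0.49 (adjusted p = 0.737). Its 25(OH)D libraries lay on both sides of the controls, on 6 to 28 counts per library over the whole study.

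Xpr1, the gene of the phosphate exporter, was at 47.2, 55.0 and 85.4 CPM in the control libraries, against 75.1, 72.6 and 65.0 CPM with 25(OH)D. The control libraries spanned the treated ones, and the difference was 0.18 ± 0.20 on the log2 scale (SE, adjusted p = 0.669, edgeR), with a 95% interval from −0.24 to 0.60. The high control value was that of control library 3.

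**Figure D2:**
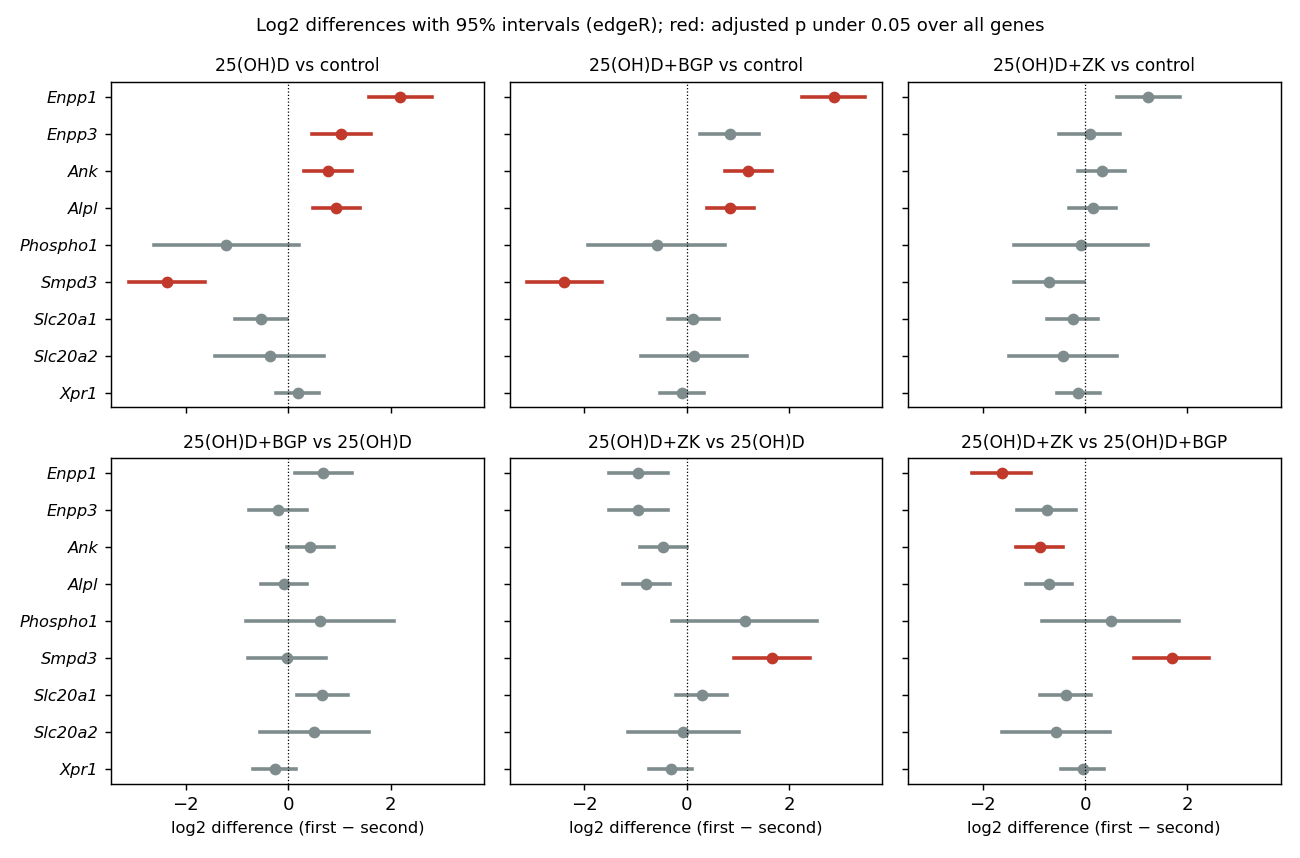
Log2 differences (horizontal axis, first group minus second) of the 9 genes in the 6 comparisons, with 95% intervals from edgeR and red marking an adjusted p under 0.05 over all genes. Red points number 5, 4 and 0 in the comparisons with control in the upper row, and 0, 1 and 3 in the lower row.

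The promoters of the genes that rose together with 25(OH)D are shown because the vitamin D receptor acts by binding DNA, its classical site being the DR3 vitamin D response element, a direct repeat with a spacer. Sequences are RefSeq windows of GRCm38.p6, from 250 bases before to 50 after an annotated start, while the counts were made on mm39, and 7 of the 9 genes matched with 9 windows. Reads from the 3' end do not show which start was used. The windows are Enpp1 at chr10:24712110-24712409 (minus strand), Enpp3 at chr10:24836146-24836445 (minus strand), Ank at chr15:27466427-27466726 (plus strand), and Alpl at chr4:137796335-137796634 and chr4:137766426-137766725 (minus strand). Capitals mark matches on either strand to the single hexamers AGGTCA and GGTTCA of nuclear receptor sites, the RUNX site TGTGGT, the GC box GGGCGG and the TATA box TATAAA, and neighbouring GC boxes may overlap.
Enpp1: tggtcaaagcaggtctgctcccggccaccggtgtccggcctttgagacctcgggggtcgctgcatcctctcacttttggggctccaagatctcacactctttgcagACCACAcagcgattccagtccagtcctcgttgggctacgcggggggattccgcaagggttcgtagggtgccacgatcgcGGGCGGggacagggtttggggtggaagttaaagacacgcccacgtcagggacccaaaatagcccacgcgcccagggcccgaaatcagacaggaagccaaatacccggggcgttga
Enpp3: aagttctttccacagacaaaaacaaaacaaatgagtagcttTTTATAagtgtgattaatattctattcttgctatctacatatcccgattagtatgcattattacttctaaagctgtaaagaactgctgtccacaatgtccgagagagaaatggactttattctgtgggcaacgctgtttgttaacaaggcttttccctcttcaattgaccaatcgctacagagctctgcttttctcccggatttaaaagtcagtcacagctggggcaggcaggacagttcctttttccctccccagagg
Ank: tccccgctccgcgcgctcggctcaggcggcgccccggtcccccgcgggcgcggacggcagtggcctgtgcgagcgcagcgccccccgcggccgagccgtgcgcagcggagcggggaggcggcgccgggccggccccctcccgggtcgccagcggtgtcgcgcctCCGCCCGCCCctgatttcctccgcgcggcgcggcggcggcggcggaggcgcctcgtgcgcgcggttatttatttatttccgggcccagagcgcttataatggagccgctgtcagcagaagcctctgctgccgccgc
Alpl, upstream start: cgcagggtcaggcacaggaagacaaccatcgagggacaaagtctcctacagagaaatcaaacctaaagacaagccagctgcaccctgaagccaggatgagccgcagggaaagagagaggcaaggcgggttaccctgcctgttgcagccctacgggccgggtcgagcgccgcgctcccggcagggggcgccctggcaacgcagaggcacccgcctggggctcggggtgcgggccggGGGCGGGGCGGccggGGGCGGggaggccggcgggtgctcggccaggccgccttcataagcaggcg
Alpl, downstream start: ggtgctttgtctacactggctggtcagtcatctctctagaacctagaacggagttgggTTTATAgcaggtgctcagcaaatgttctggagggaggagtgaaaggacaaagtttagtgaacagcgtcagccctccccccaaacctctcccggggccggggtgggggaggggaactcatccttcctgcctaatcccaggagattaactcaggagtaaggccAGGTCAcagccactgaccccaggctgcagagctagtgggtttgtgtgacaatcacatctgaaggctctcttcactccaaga

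The DR3 element was in 0 of the 9 windows and in 0.0396% of all 32851 windows of this length. Smpd3 and Slc20a2 had no window, and sequence outside the windows was not searched. The hexamer AGGTCA was in 4 of the 9 windows and in 16.3% of all. Among the genes that rose it was in the downstream Alpl window alone, on the plus strand of the gene at position −31, counted from the start base as 1. GGTTCA was in 0 of 9 and in 10.4% of all windows. Matches to GGGCGG were in 7 of 9 windows, beside 35.7% of all. The windows of Enpp1 (at −65), Ank (at −86 and −82, overlapping) and Alpl (upstream start, at −15, −10 and 1) held it, and that of Enpp3 did not. TGTGGT was in 2 of 9 windows, beside 16.8% of all, and among the genes that rose it lay in that of Enpp1 at −144 on the opposite strand. TATAAA was in 3 of 9, beside 13.6% of all, in the windows of Enpp3 at −209 and Alpl (downstream start) at −192, both on the opposite strand, and in that of Slc20a1. These are matches of letters, not measured binding.

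A further 4 mM BGP, which adds phosphate donor for alkaline phosphatase, gave no call among the 9 genes or among all 14394 (0 and 0 by edgeR, background 0%). At an unadjusted p under 0.05 there were 2 of the 9, Enpp1 and Slc20a1, and 268 of all genes (1.86%), and DESeq2 also called 0 of the 9. The median log2 difference of the 9 was 0.43, beside −0.02 over all genes.

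Enpp1 was at 26.4, 33.8 and 29.5 CPM with added BGP, all above the highest library with 25(OH)D alone (24.1 CPM). The log2 difference was 0.68 ± 0.25 (SE), with a 95% interval from 0.13 to 1.23 and an adjusted p of 1.000 (edgeR). Slc20a1 was at 43.5, 37.3 and 57.7 CPM, also above all libraries with 25(OH)D alone, at a log2 difference of 0.66 ± 0.23 (adjusted p = 1.000). In all, 4 of the 9 genes did not overlap between these groups, beside 6.04% of all genes.

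Ank was at 87.8, 147 and 123 CPM with added BGP, overlapping 25(OH)D alone, and differed by 0.43 ± 0.21 on the log2 scale (SE). Alpl was at 49.1, 54.4 and 33.2 CPM, a difference of −0.08 ± 0.21 with a 95% interval from −0.53 to 0.37. Smpd3 was at 10.7, 5.14 and 5.98 CPM, on both sides of the 25(OH)D libraries, and differed by −0.02 ± 0.35. Enpp3 (20.8, 17.8 and 21.4 CPM) and Xpr1 (58.1, 60.4 and 58.0 CPM) were lower in every BGP library than in any with 25(OH)D alone, at −0.20 ± 0.26 and −0.27 ± 0.20. Phospho1 was at 4.21, 0.642 and 4.82 CPM and Slc20a2 at 6.73, 3.85 and 5.40 CPM, both overlapping the group without added BGP. All 9 genes had an adjusted p of 1.000 here.

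Against control, which shares its libraries with the first comparison, cells given 25(OH)D with BGP had 4 of the 9 genes called, 3 higher and 1 lower, beside 8.25% of all genes, 3.9% higher and 4.35% lower (edgeR). Groups did not overlap for 5 of the 9, beside 21% of all. Enpp1 was 7.30-fold higher (log2 2.87 ± 0.28, SE, adjusted p = 4.06e-05), and Ank 2.31-fold higher (1.21 ± 0.21, adjusted p = 0.00301). Both calls held in all 14 other ways of processing. Smpd3 fell by 2.39 on the log2 scale (SE 0.34, adjusted p = 0.000619), a call that also held in all 14. Alpl rose by 0.85 ± 0.21 (adjusted p = 0.0238), a call lost in 6 of them, including without control library 2 (0.0774) or 3 (0.0593) or BGP library 1 (0.0739) or 2 (0.0931). Enpp3 differed by 0.84 ± 0.27 and did not pass (adjusted p = 0.0821). It passed in 3 of 14 other ways: without control library 1 (0.0193), with DESeq2 (0.0197) and with the ribosomal protein ratio as a covariate (0.00196). The other 4 genes had an adjusted p of at least 0.745.

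When ZK191784 was given with 25(OH)D, Smpd3 was the 1 of the 9 genes that passed against 25(OH)D alone, beside 3.53% of all genes, 1.42% higher and 2.11% lower (edgeR). The 4 genes that had risen with 25(OH)D were lower in every ZK191784 library than in any 25(OH)D library, without passing the test. These 4 and Smpd3 were singled out by the same 25(OH)D libraries, so this comparison is not independent of the first. In all, 7 of the 9 did not overlap, these 4 and Xpr1 being lower and Smpd3 and Slc20a1 higher, beside 17.6% of all genes. The median log2 difference of the 9 was −0.31, beside 0.02 over all.

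Smpd3 was at 27.2, 27.5 and 14.8 CPM with ZK191784, above the 25(OH)D libraries, which were all under 7.5 CPM. The rise was 3.17-fold (log2 1.67 ± 0.34, SE, adjusted p = 0.0151, edgeR). The call was lost without 25(OH)D library 1 (adjusted p = 0.0643) or 2 (0.0724) or ZK191784 library 1 (0.0691) or 2 (0.0784), with a log2 difference of at least 1.53 in each of 14 other ways of processing. All 3 libraries remained below the lowest control library (28.5 CPM), and the difference from control was −0.70 ± 0.31 (adjusted p = 0.717).

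Enpp1 was at 8.39, 10.6 and 10.0 CPM with ZK191784, between the control and the 25(OH)D libraries without touching either. Against 25(OH)D the log2 difference was −0.94 ± 0.26 (SE, adjusted p = 0.0815, edgeR), and against control it was 1.24 ± 0.29, a 2.36-fold higher level (adjusted p = 0.0928). DESeq2 passed both (adjusted p = 0.0145 and 0.0120), and both passed once the ribosomal protein ratio was a covariate (0.00404 and 0.00385). The comparison with control also passed without the low-count filter (0.0459).

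Enpp3 was at 9.83, 12.8 and 13.0 CPM with ZK191784, inside the range of the controls, at −0.95 ± 0.27 against 25(OH)D (SE, adjusted p = 0.0834, edgeR) and 0.09 ± 0.27 against control. Alpl was at 24.2, 32.8 and 27.0 CPM, overlapping the controls, at −0.78 ± 0.21 against 25(OH)D (adjusted p = 0.0681) and 0.15 ± 0.21 against control. DESeq2 called the differences from 25(OH)D for Enpp3 (adjusted p = 0.0116) and Alpl (0.0122), and so did the covariate fit (0.00154 and 0.00120). Ank was at 74.7, 63.6 and 55.9 CPM, at −0.45 ± 0.21 against 25(OH)D (adjusted p = 0.447), a difference that passed in the covariate fit (0.0221).

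The other 4 genes did not pass against 25(OH)D or control. Phospho1 was at 2.87, 4.34 and 6.52 CPM with ZK191784, overlapping both other groups, with a log2 difference of 1.13 ± 0.65 from 25(OH)D (SE, adjusted p = 0.610, edgeR) and −0.08 ± 0.60 from control. Slc20a1 was at 35.2, 35.2 and 36.5 CPM, above all 25(OH)D libraries, at 0.29 ± 0.23. Slc20a2, at 3.48, 1.45 and 5.65 CPM, differed from 25(OH)D by −0.07 ± 0.50, and Xpr1, at 58.5, 60.0 and 52.6 CPM, by −0.31 ± 0.20. Against control 0 of the 9 genes passed by edgeR, with 2 at an unadjusted p under 0.05 (Enpp1 and Smpd3), beside 0.723% of all genes called (0.507% higher, 0.215% lower) and 6.67% at that unadjusted p. The same 2 genes did not overlap, beside 11.8% of all. DESeq2 called 1 of the 9.

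The 2 combinations were also set against each other, with the same 25(OH)D dose in both. ZK191784 cells had less Enpp1 and Ank and more Smpd3 than BGP cells, 3 of the 9 genes, beside 3.25% of all (1.6% higher, 1.65% lower, edgeR). Groups did not overlap for 6 of the 9, beside 17.1% of all. Enpp1 fell by 1.63 on the log2 scale (SE 0.26, adjusted p = 0.00384), from 29.9 ± 3.75 with BGP to 9.67 ± 1.14 CPM with ZK191784 (mean ± SD, n = 3 each), and held in all 14 other ways of processing. Smpd3 rose by 1.69 ± 0.34 (adjusted p = 0.0149), from 7.26 ± 2.97 to 23.2 ± 7.26 CPM. That call was lost in 6 of 14, including without BGP library 2 (0.0663) or 3 (0.0922) or ZK191784 library 1 (0.0732) or 2 (0.0765). Ank fell by 0.88 (SE 0.21, adjusted p = 0.0404) and lost its call in 7, including without BGP library 2 (0.155) or 3 (0.141) or any ZK191784 library (0.0658, 0.173 and 0.174). Alpl differed by −0.70 ± 0.21 and Enpp3 by −0.75 ± 0.27, neither passing (adjusted p = 0.111 and 0.216). Alpl passed in 2 of 14 other ways, DESeq2 (0.0314) and the ribosomal protein ratio as a covariate (0.00448). Enpp3 passed in 1, with that covariate (0.0123).

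By group mean, Enpp1 was ordered BGP, 25(OH)D, ZK191784 and control, at 730%, 455%, 236% and 100% of control. No neighbouring pair in that order passed by edgeR, and the pairs farther apart that passed were BGP with ZK191784, BGP with control and 25(OH)D with control. Ank had the same order at 231%, 171%, 125% and 100%, again with no neighbouring pair passing. Enpp3 and Alpl were highest with 25(OH)D alone (205% and 191%), then BGP (179% and 181%), ZK191784 (106% and 111%) and control, and in neither gene did neighbours pass. Smpd3 ran in the order control, ZK191784 (61.6%), 25(OH)D (19.35%) and BGP (19.31%), where the step between ZK191784 and 25(OH)D passed. In Phospho1, Slc20a1, Slc20a2 and Xpr1 no pair of groups passed.

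Enpp1 and Alpl act on pyrophosphate in opposite ways, and both rose with 25(OH)D, so their levels were set against each other in each library. The log2 ratio of Alpl to Enpp1 CPM was 2.71, 3.04 and 2.22 in the control libraries, against 1.05, 1.68 and 1.47 for 25(OH)D alone, 0.90, 0.68 and 0.17 with added BGP, and 1.52, 1.63 and 1.43 with ZK191784. All libraries given 25(OH)D, alone or in combination, were below every control library, and all BGP libraries were below every other library. ZK191784 libraries lay within the range of 25(OH)D alone. With Enpp3 added to Enpp1, the log2 ratio was 0.54, 0.76 and 0.94 in the control libraries, 0.09, 0.37 and 0.20 for 25(OH)D alone, 0.06, 0.08 and −0.62 with added BGP, and 0.41, 0.49 and 0.23 with ZK191784. On that ratio 2 of 3 ZK191784 libraries were above every library with 25(OH)D alone. As the pair was chosen with their values known, no test was made, and the ratio of 2 mRNAs gives no level of pyrophosphate.

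**Figure D3:**
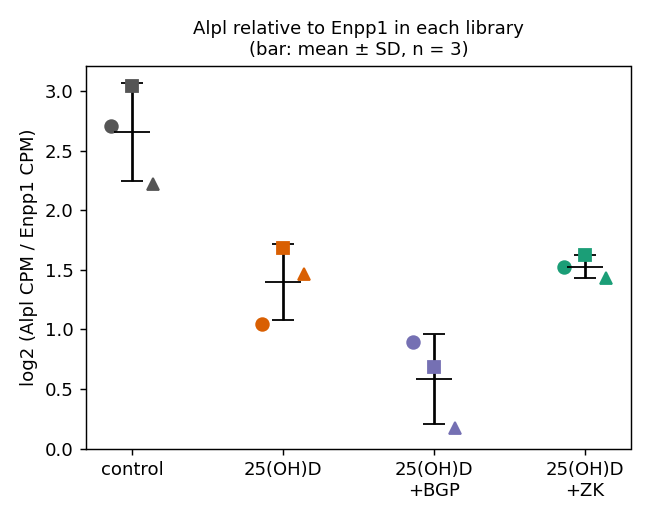
Log2 ratio of Alpl to Enpp1 CPM (vertical axis) in each of 12 libraries, by group, with mean and SD (n = 3). The means were 2.66 in control, 1.40 with 25(OH)D, 1.53 with ZK191784 and 0.58 with added BGP.

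Other genes of the same processes were read from 6 lists with 81 genes, of which 57 were tested. With 25(OH)D 2 of the 57 rose and 3 fell by edgeR, a share near the 8.68% of all genes (4.76% higher, 3.93% lower), and their median log2 difference was 0.01. DESeq2 called 9 of them, beside 1649 of all genes, and the fit with the ribosomal protein ratio as a covariate 16, beside 2854. Without the 3 libraries of highest ratio 3 were called, beside 1050. With ZK191784 against 25(OH)D 1 rose and 3 fell, beside 3.53% of all genes, and 10 were called with the covariate, beside 1643. Without 25(OH)D library 2 or 3 or ZK191784 library 1 or 2 there were 2, both lower, beside 269 to 428 of all genes. With BGP against 25(OH)D 0 of 57 were called by edgeR, and in each of the 14 other ways of processing.

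Of 8 further phosphate transporter genes tested, 1 rose and 1 fell with 25(OH)D, beside 4.76% and 3.93% of all genes. Slc37a2, of a family of sugar-phosphate and phosphate exchangers of the endoplasmic reticulum, rose from 0.529 ± 0.253 to 12.1 ± 1.53 CPM (mean ± SD, n = 3, log2 4.43 ± 0.55, SE, adjusted p = 0.000229, edgeR). Its control level rests on few reads, so the size of the rise is uncertain. With ZK191784 Slc37a2 was at 2.13 ± 1.43 CPM and fell by 2.47 against 25(OH)D (SE 0.46, adjusted p = 0.00885). Its relative Slc37a3 moved the other way, falling from 215 ± 23.0 to 106 ± 10.1 CPM with 25(OH)D (log2 −1.02 ± 0.18, adjusted p = 0.00272) and rising to 193 ± 29.0 CPM with ZK191784 (0.86 ± 0.18, adjusted p = 0.0163). The call for that rise was lost without 25(OH)D library 2 or 3 or ZK191784 library 1 or 2.

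Of 8 genes of ATP release and sensing, 1 rose and 1 fell with 25(OH)D, beside the same 4.76% and 3.93%. P2ry2, the receptor for extracellular ATP and UTP, rose from 2.10 ± 1.03 to 24.8 ± 8.32 CPM (mean ± SD, n = 3, log2 3.56 ± 0.42, SE, adjusted p = 0.000150, edgeR) and fell by 2.16 with ZK191784 (SE 0.38, adjusted p = 0.00617). Gja1, encoding connexin 43 of gap junctions and hemichannels, fell with 25(OH)D from 18.6 ± 5.83 to 5.34 ± 3.26 CPM (adjusted p = 0.0224). Abcc4, an exporter of organic anions, fell with ZK191784 from 67.0 ± 2.31 to 44.3 ± 2.65 CPM (log2 −0.60 ± 0.14, adjusted p = 0.0315). Without 25(OH)D library 2 or 3 or ZK191784 library 1 or 2 only 2 pathway genes were called lower. Not all of the falls of Slc37a2, P2ry2 and Abcc4 were thus called there.

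Among 13 enzymes of pyrophosphate and extracellular nucleotides, 0 rose and 1 fell with 25(OH)D, near the 8.68% of all genes, and the list's median log2 difference was −0.41. The gene that fell was Ppa1, the cytosolic inorganic pyrophosphatase, from 61.7 ± 8.35 to 33.7 ± 3.63 CPM (mean ± SD, n = 3, log2 −0.87 ± 0.18, SE, adjusted p = 0.00922, edgeR). By edgeR 0 of 9 genes of inositol pyrophosphate turnover, which makes the ligands of XPR1, passed with 25(OH)D. The same held for 0 of 14 genes of phosphocholine supply and sphingomyelinases and 0 of 6 other phosphatases and zinc transporters that serve alkaline phosphatase. At 8.68% of all genes, a count of 0 in lists this short is near the background.

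**Figure D4:**
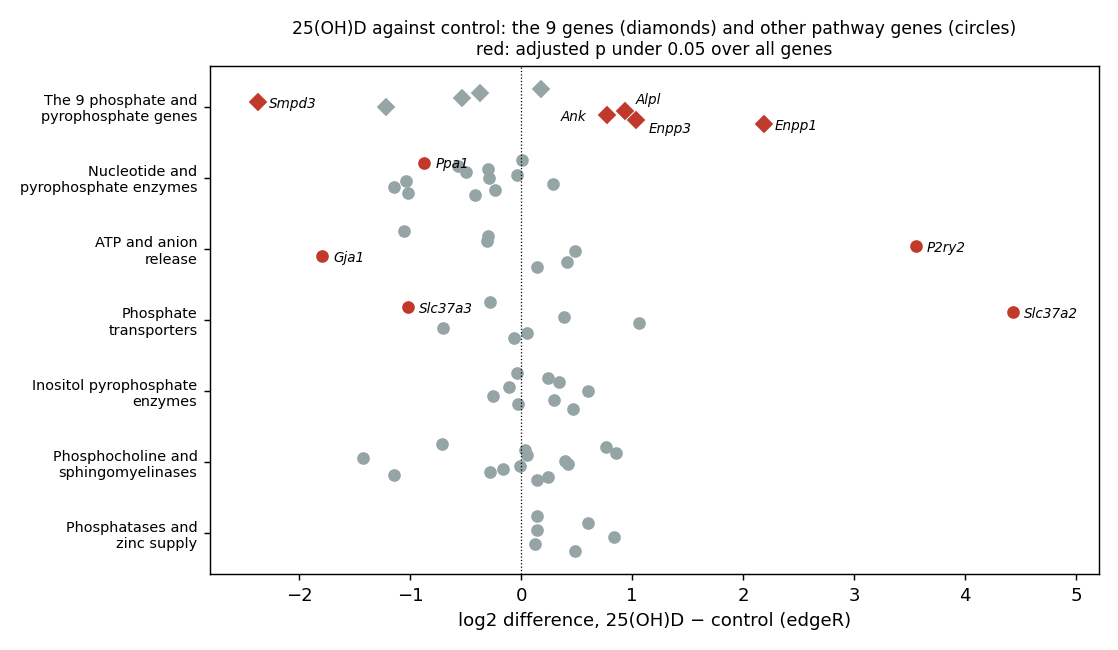
Log2 difference between 25(OH)D and control (horizontal axis) for the 9 genes (diamonds) and the tested genes of 6 pathway lists (circles, a gene in 2 lists shown in both), with red for an adjusted p under 0.05 over all genes. Named red circles lie at 4.43 (Slc37a2), 3.56 (P2ry2), −0.87 (Ppa1), −1.02 (Slc37a3) and −1.79 (Gja1).

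For each gene that passed in any comparison, the 3 genes with the most similar course over the 12 libraries were found by the root mean square difference of mean-centred log2 CPM, among 11410 candidates. For Enpp1, whose own SD over libraries was 1.11, these were Slc47a1, Rgl1 and Vtn, at 0.384, 0.401 and 0.406. For Enpp3 (SD 0.546) they were Plekho2, Snx8 and Kdm4b, at 0.130, 0.183 and 0.186. Ank (SD 0.523) was nearest to Got1, Ppp3ca and Ermp1, at 0.143, 0.184 and 0.190. Alpl (SD 0.473) was nearest to Litaf, Runx1 and Plxna1, at 0.165, 0.168 and 0.179. For Smpd3 (SD 1.11) they were Phldb2, Mef2c and Pclaf, at 0.314, 0.339 and 0.340. The distances are the smallest of many and describe these libraries only.

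**Figure D5:**
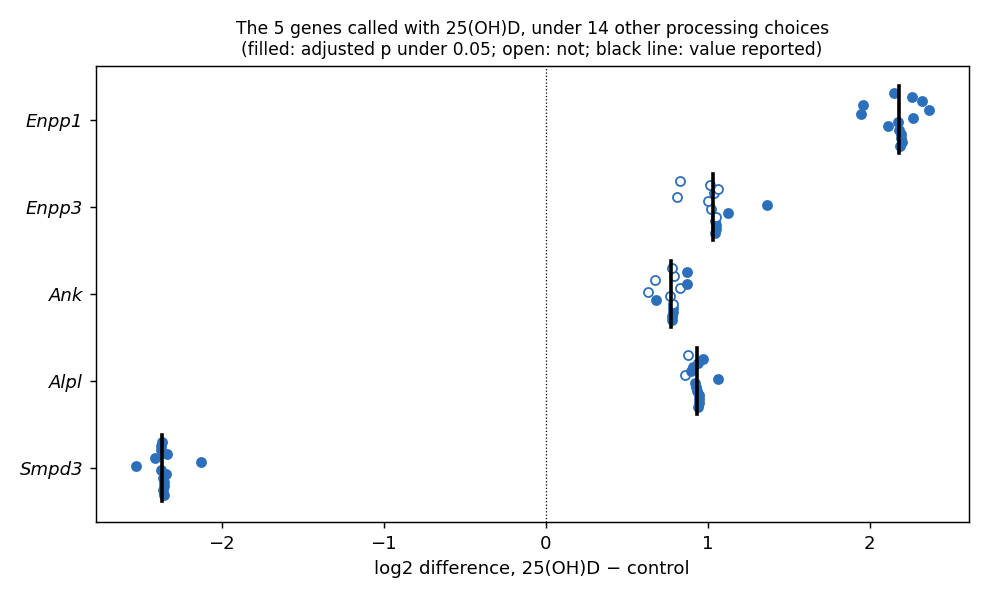
Log2 difference between 25(OH)D and control (horizontal axis) for the 5 genes that passed, under 14 other processing choices (filled, adjusted p under 0.05) and as reported (black line). All values keep their sign, and 14 of 14 points are filled for Enpp1 and Smpd3, 12 for Alpl, 7 for Ank and 6 for Enpp3.

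Averaged over the 4 groups, counting error was smaller than the spread between libraries in all 9 genes. This did not hold in every single group. With 25(OH)D alone the observed variation was 2.4% for Enpp3, 3.9% for Smpd3 and 4.1% for Alpl. Their mean counting errors were 12.3%, 13.6% and 8.21%, so such narrow ranges are no measure of precision. Mean counting error within a group, from the counts alone, was 5.53% for Ank, 6.11% for Xpr1 and 7.90% for Slc20a1, and the observed coefficient of variation was 17.8%, 12.2% and 16.7%. For Phospho1 counting error alone was 26.4% and for Slc20a2 23.3%, beside observed variation of 51.4% and 39.0%. For Enpp1 these were 14.8% and 19.8%.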

How the data were processed

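Counts per gene symbol in 12 libraries, 3 per group, were used as the authors deposited them. Per the submitters' processing notes the tools were STAR 2.7.9a, Subread 2.0.3 with featureCounts, and DESeq2 1.38.2, whose role is not stated, and the build was mm39. Libraries were QuantSeq 3' mRNA, per the labels' protocols. No source used here gives the annotation release, strand setting or filters, and reads of overlapping or antisense genes cannot be told apart.

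Repeated symbols (882) were kept apart. Genes were filtered with filterByExpr (min.count 10, min.total.count 15) and scaled by TMM. With edgeR 4.0.16 (R 4.3.3), 1 quasi-likelihood model of the 4 groups, without a block, took in all 12 libraries. Genes were called at a Benjamini-Hochberg adjusted p under 0.05 over all 14394 tested. SE is the absolute log2 difference over the square root of F, and the 95% intervals follow from it. The common biological coefficient of variation was 0.292. The method was tested on simulated counts drawn independently for each library. Those counts lack the deviations that some real libraries share, so the simulation does not cover their effect.

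The 9 genes and the lists were chosen with earlier results of these data known. Named genes were all 9, up to 4 called genes per list from the 25(OH)D and ZK191784 comparisons, and the 3 nearest in course (average log2 CPM of at least 1, prior count 2, no Gm, Rik or pseudogene name). Enpp6 stood in 2 lists.

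Alternatives were RLE, DESeq2 1.42.0, no filter, a stricter filter (CPM of 2 in at least 3 libraries), the ribosomal protein ratio as a covariate, a fit of only the 2 groups compared, a replicate block, each library of the 2 groups left out and, chosen after seeing the data, the 3 libraries of highest ratio left out. Figures used matplotlib 3.10.9 in Python 3.11.15.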

Additional observations from a re-analysis of the deposited data

How the results depend on the processing

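Over 54 gene differences under 14 alternatives each (756 values), 676 kept their direction and side of the threshold, 40 lost a call, 17 gained one and 23 changed sign, none of them a called difference. With 25(OH)D against control 5 of the 9 genes passed. It was 3 with a replicate block and with the 2 groups alone, 2 without the 3 libraries of highest ribosomal protein ratio, and 2 to 4 when 1 library was left out. With ZK191784 against 25(OH)D, 1 passed, against 4 with DESeq2, 5 with the ratio as a covariate and 0 to 1 with a library left out. Against control, 0 passed with ZK191784, but 1 (Enpp1) with DESeq2, without the filter and with the covariate. Between the combinations 3 passed, 5 with the covariate, 1 without the 3 libraries and 1 to 3 with a library left out. The calls among all genes ran from 763 to 2854 (reported 1250) for 25(OH)D, from 0 to 6 (0) for added BGP, from 269 to 1643 (508) for ZK191784, from 712 to 2683 (1187) for BGP against control, from 34 to 671 (104) for ZK191784 against control and from 234 to 1600 (468) between the combinations. The highest was each time with the covariate. DESeq2 called 797 for ZK191784 against 25(OH)D, 257 against control and 760 between the combinations. The causes were not tested.

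None of the differences whose sign changed had passed the test. With the covariate Phospho1 was at 0.12 (ZK191784 against control). With the 2 groups alone Smpd3 was at 0.019 (BGP against 25(OH)D). Without the 3 libraries Smpd3 was at 0.14 there, and against control Xpr1 was at 0.21 (BGP) and 0.19 (ZK191784), Enpp3 at −0.12 and Slc20a1 at 0.041 (both ZK191784). With 1 library left out the ranges for BGP against 25(OH)D were −0.38 to 0.18 for Smpd3 and −0.22 to 0.11 for Alpl. For BGP against control they were −0.048 to 0.40 for Slc20a1, −0.047 to 0.36 for Slc20a2 and −0.26 to 0.22 for Xpr1. For ZK191784 against control they were −0.43 to 0.36 for Phospho1, −0.12 to 0.42 for Enpp3, −0.44 to 0.037 for Slc20a1 and −0.30 to 0.18 for Xpr1. For Slc20a2 against 25(OH)D the range was −0.57 to 0.50 (ZK191784), and for Xpr1 between the combinations −0.083 to 0.011.

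Same-numbered libraries of different groups did not consistently deviate together (correlations of deviations from −0.71 to 0.61, 4 of 18 over 0.1). Of 12 libraries 3 were closest to their own number, so the replicate block rests on a shared number only. Some sets of libraries, mostly with different numbers, did deviate together. Control library 3 correlated at 0.66 with 25(OH)D library 1, 0.63 with BGP library 2 and 0.62 with ZK191784 library 1. For control library 1 the values were 0.59 with 25(OH)D library 3, 0.56 with BGP library 1 and 0.55 with ZK191784 library 3. Control library 3, 25(OH)D library 1 and BGP library 2 had the highest ribosomal protein ratios. The reported model has no term for such shared deviations, and their cause was not tested. Counting error was 26.4% for Phospho1 and 23.3% for Slc20a2, below their observed variation of 51.4% and 39.0%.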
